A study of Mus musculus with 16 samples.

Results

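The Notch receptors Notch1 and Notch4, the Notch ligands Dll4, Jag1 and Jag2, the Notch target genes Hey1 and Hey2, and the arteriovenous identity genes Efnb2, Ephb4 and Nr2f2 were followed by RNA-seq in mouse brain microvascular endothelial cells (mBMEC) with and without Ccm3. These 10 genes were chosen by name, out of 54193 genes in the deposited data. For each of them the estimated read counts of all its transcripts were summed in each of 16 libraries, and the 6 groups of genotype and drug were compared. All 10 passed the filter on low counts.

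Notch signalling passes between touching cells. A ligand of the Delta-like or Jagged family on one cell binds a Notch receptor on its neighbour, the receptor is cut, and its inner part enters the nucleus, where it joins the DNA-binding protein Rbpj and switches on genes such as the repressors of the Hey and Hes families. In blood vessels, high Dll4 and Notch activity go with arterial identity and restrain sprouting, Jag1 can oppose Dll4 at the tip of a sprout, and the membrane ligand ephrin-B2 (Efnb2) marks arteries while its receptor Ephb4 and the nuclear receptor Nr2f2 (COUP-TFII) mark veins.

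Cells of all groups came from adult mice with a floxed Pdcd10 gene, which encodes Ccm3, and the Cdh5(PAC)-CreERT2 transgene, a tamoxifen-inducible Cre that the endothelial Cdh5 promoter drives. Each culture was a pool of 3 to 4 brains and was selected with puromycin. Cells given 4-hydroxytamoxifen (4-OHT) are called KO and cells without it WT, so exposure to 4-OHT and loss of Ccm3 cannot be told apart. Cells were left untreated (3 WT and 3 KO libraries), were given 10 µM propranolol, a blocker of beta-adrenergic receptors, for 24 h (2 WT+P and 3 KO+P libraries), or were given 100 nM rapamycin, an inhibitor of mTORC1, for 24 h (2 WT+R and 3 KO+R libraries). Drug comparisons within a genotype share the untreated libraries of that genotype, and those libraries also enter the comparison of KO with WT.

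The Dll4 and Hey2 promoters are shown because a search of the promoters of these genes found a match upstream of the annotated gene there, in a Notch ligand and in a Notch target gene. The search covered 250 bases before to 50 bases after the RefSeq start of 9 of the 10 genes in GRCm39, on both strands, for TGGGAA, a core sequence bound by Rbpj, and for CACGTG and CACGCG, which Hes and Hey proteins can bind. Capitals mark the match, and each sequence runs 5′ to 3′ on the strand of the gene and stops at the first base of the annotated gene. Dll4 is on the plus strand (chr2:119156015-119156169) and Hey2 on the minus strand (chr10:30718829-30719029).
Dll4: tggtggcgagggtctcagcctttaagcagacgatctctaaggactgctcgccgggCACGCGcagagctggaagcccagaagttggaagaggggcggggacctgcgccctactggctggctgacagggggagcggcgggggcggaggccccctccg
Hey2: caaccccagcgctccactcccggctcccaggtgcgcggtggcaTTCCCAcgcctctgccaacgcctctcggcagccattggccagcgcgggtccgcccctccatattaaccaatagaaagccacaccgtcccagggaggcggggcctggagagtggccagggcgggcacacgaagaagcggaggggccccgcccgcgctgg
In Hey2 the capitals are TGGGAA read from the other strand, and a second TGGGAA spanned the start. CACGCG also lay before the RefSeq start of Jag1 on both strands, but within the annotated gene, and after the start of Jag2. No other match was found in these windows. Of 32851 mouse promoters of this length, 25.6% held TGGGAA, 7.15% CACGTG and 9.27% CACGCG, so such matches are common and say nothing by themselves about binding. Hey1 was not matched to the promoter table.

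For Dll4, the study also lists RT-qPCR primers, but its text reports no RT-qPCR result for this gene. The primers show which piece of the gene such an assay would read.
Dll4 forward primer: ttccaggcaaccttctccga
Dll4 reverse primer: actgccgctattcttgtccc
Both lie in the coding part of exon 2 of 11, from 119156925 to 119157026 on chromosome 2 of GRCm39, and bound a product of 102 bases. The transcript Dll4-201, which the primers match, held 99.98% of the Dll4 counts in the RNA-seq files, so there the gene total is in effect its level. The primers also match Dll4-203, Dll4-204 and Dll4-205, which are not among the 2 Dll4 transcripts in those files.

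The genotype labels were checked first on Pdcd10. It lay at 11.5, 31.2 and 47.0 CPM (counts scaled by the TMM-adjusted library size) in WT replicates 1, 2 and 3 and at 9.72, 11.0 and 9.73 CPM in KO. All KO libraries with a drug were at 7.83 to 16.7 CPM and all WT libraries with a drug at 27.7 to 60.8 CPM. The library labelled WT replicate 1 thus sat at the level of KO cells, against its label. Most, but not all, values of the 10 genes that rest on it are given with and without it. The log2 fold change of Pdcd10 from WT to KO was −1.56 ± 0.40 (SE, adjusted p = 0.42, edgeR), and −1.96 ± 0.30 without that library (adjusted p = 0.13, edgeR).

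The cells carried their labelled identity. All 12 endothelial markers were above 1 CPM on average, with a summed level of 9316 to 18368 CPM per library. The lowest sums belonged to WT+P replicate 1 (9316 CPM) and KO+P replicate 1 (9951 CPM), which also had the lowest Kdr, the main VEGF receptor, at 53.2 and 59.2 CPM against 83.4 to 542 CPM elsewhere. Summed mural markers (10 genes, mainly Acta2 and Tagln) were 95.3 to 859 CPM in WT, 1465 to 2564 CPM in WT+R, 408 to 1432 CPM in WT+P, 70.5 to 207 CPM in KO, 114 to 445 CPM in KO+P and 273 to 452 CPM in KO+R. The pericyte markers Kcnj8 and Abcc9 reached at most 0.187 and 0.465 CPM. Astrocyte, oligodendrocyte, microglia and macrophage, lymphatic, neuron and fibroblast lists summed to at most 7.63, 2.04, 26.7, 27.2, 90.1 and 202 CPM. Lum and most neuronal genes were at or near 0, and Stmn2 made up nearly all of the neuronal sum. In bulk libraries fewer cells of a type and less RNA per cell cannot be told apart.

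**Figure D1:**
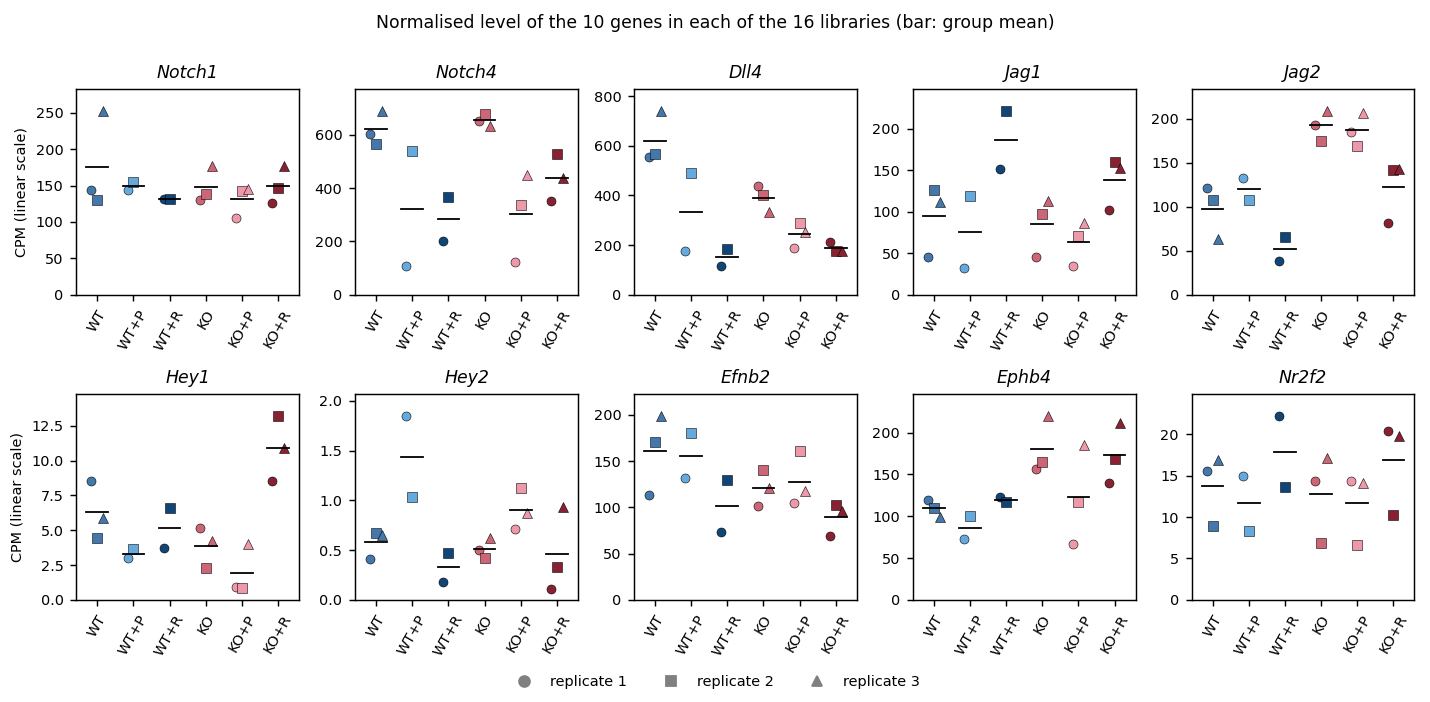
Level of each of the 10 genes in CPM on a linear scale that starts at 0, with 1 point per library, the marker shape giving the replicate number and the bar the group mean. Dll4 is highest in WT (553 to 741 CPM) and lowest in both rapamycin groups (117 to 211 CPM), while Jag1 is highest in WT+R (152 and 222 CPM).

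Corrected for transcript length, Notch4 was the most abundant of the 10 genes in WT cells, at 348 ± 32.7 TPM (counts per transcript length, scaled to a fixed total, SD, n = 3). Dll4 came next at 273 ± 61.3 TPM and overlapped it. Efnb2 followed at 55.3 ± 18.3 TPM, clear of Dll4. Jag2, Ephb4, Notch1 and Jag1 came after it at 43.1, 40.6, 29.1 and 27.5 TPM, each overlapping its neighbour. Nr2f2 (6.15 TPM) and Hey1 (4.47 TPM) were lower and overlapped each other, and Hey2 was last at 0.395 TPM. The receptor typical of endothelium and the arterial ligand thus had the highest summed TPM, and the direct target genes were among the lowest.

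In KO cells the summed values of Notch4 (375 ± 90.2 TPM) and Dll4 (166 ± 21.4 TPM) no longer overlapped, with the same limit for Notch4. Jag2 (82.8 ± 5.01 TPM) and Ephb4 (66.0 ± 12.2 TPM) stood above Efnb2 (40.6 ± 8.50 TPM). With rapamycin the ligands lay closer together. In WT+R cells Dll4 (61.6 ± 20.9 TPM, n = 2) overlapped Jag1 (51.3 ± 16.6 TPM), and in KO+R cells Dll4 (72.8 ± 2.69 TPM) was followed by Ephb4 (58.7 TPM), Jag2 (46.6 TPM) and Jag1 (36.6 TPM). In WT+P cells Notch4 (168 ± 152 TPM) and Dll4 (148 ± 96.0 TPM) varied most between libraries.

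**Figure D2:**
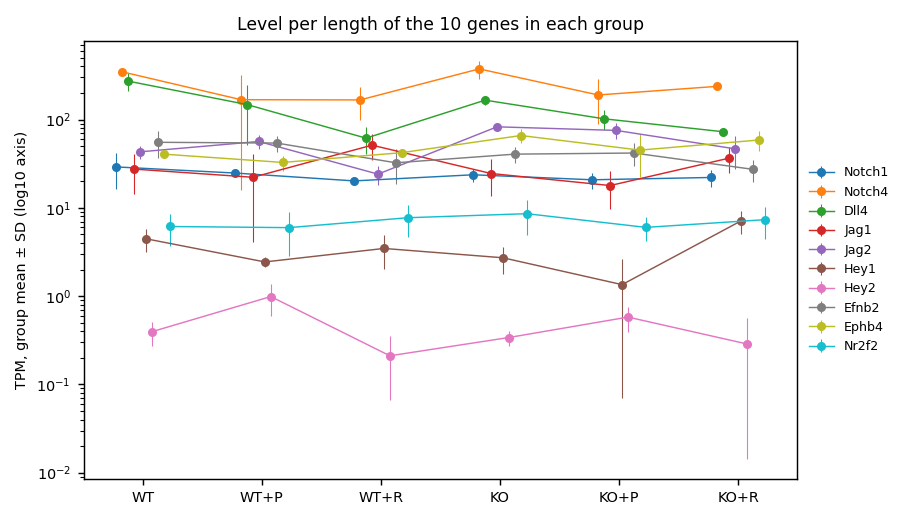
Level per transcript length of each gene in TPM on a log10 axis, as group mean with SD (n = 3, or 2 for WT+P and WT+R). Lines join the means of a gene across groups only to guide the eye. In TPM summed over transcripts, Notch4 and Dll4 are the top genes in all 6 groups, and Hey2 stays below 1 TPM on average. The Notch4 sum includes a short transcript without a defined coding sequence, and per length of the main transcripts Dll4 was higher than Notch4 in WT cells.

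Each comparison was tested over all 14838 genes that passed the filter, with edgeR's quasi-likelihood test. A gene is called where the Benjamini-Hochberg adjusted p is under 0.05 and the fold change above 1.5, and interactions, which ask whether a drug acts differently in KO and WT cells, where the adjusted p is under 0.05. Among the 10 genes the only call was Dll4 in WT+R against WT. The share of all genes called was 1.40% in that comparison, 1.51% in KO+R against KO, and 0.00674% each in KO against WT, KO+P against KO and WT+P against WT. In KO+P against WT+P, KO+R against WT+R and both interactions it was 0%. The number of the 10 genes with an unadjusted p under 0.05 was 3 in KO against WT, 2 in KO+P against KO and 3 in KO+R against KO. It was 1 in WT+P against WT, 3 in WT+R against WT, 0 in KO+P against WT+P and 1 in KO+R against WT+R. In the propranolol and rapamycin interactions it was 0 and 1. Of all 14838 genes, 900 were under that p in KO against WT, 1870 in KO+P against KO and 1862 in KO+R against KO. The number was 1464 in WT+P against WT and 1877 in WT+R against WT. Over all genes the comparisons and interactions with 0 calls had 918, 849, 107 and 113 genes under that p, and DESeq2 called 59, 77, 0 and 1.

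Libraries with the same replicate number deviated together from their group means, so a fit with the number as a block is given where it changes a call. With the block, 4 of the 10 genes were called in WT+R against WT (Dll4 and Efnb2 lower, Jag1 and Nr2f2 higher), where 4.56% of all genes were called. In KO+R against KO 1 of the 10 was called (Dll4, lower), where 4.98% of all genes were called. None of the 10 was called with it in the other comparisons, where the share of all genes was 0.182% (KO against WT), 0.142% (KO+P against KO), 0.0809% (WT+P against WT), 0.0876% (KO+P against WT+P), 0.0944% (KO+R against WT+R) and 0% (both interactions).

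The libraries of the groups did not overlap for 3 of the 10 genes in KO against WT, 4 in KO+R against KO and 3 in WT+R against WT, beside 13.2, 24.1 and 28.6% of all genes. In the other comparisons this was so for 3 of the 10 in KO+P against KO (18.7% of all genes), 4 in WT+P against WT (21.2%), 1 in KO+P against WT+P (16.6%) and 3 in KO+R against WT+R (19.2%). DESeq2 without the block called Dll4 in KO+R against KO (3.19% of all genes called), Dll4 in WT+R against WT (3.65%) and Jag2 in KO+R against WT+R (0.519%), and none of the 10 in the other comparisons. DESeq2 with the block called Jag2 in KO against WT (2.67% of all genes called), Notch4 in KO+P against KO (6.29%), Dll4, Jag1 and Hey1 in KO+R against KO (7.57%), Dll4, Jag1, Jag2 and Efnb2 in WT+R against WT (6.59%) and Jag2 in KO+R against WT+R (2.05%).

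**Figure D3:**
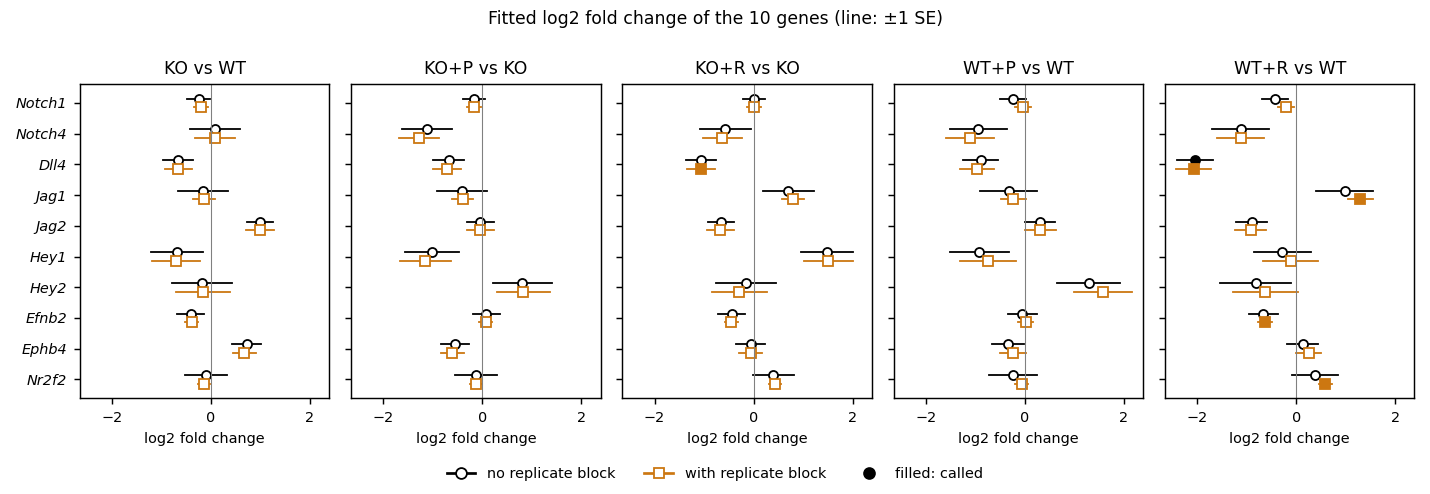
Log2 fold change (horizontal axis) of each of the 10 genes in 5 comparisons from edgeR, without the replicate block (black circles) and with it (orange squares), with lines of ±1 SE and filled symbols for calls. Dll4 lies left of 0 in all 5 panels and is called without the block in WT+R against WT alone.

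Among the ligands, Dll4 varied most clearly with the groups. Dll4 encodes the Delta-like ligand of arteries and tip cells (ENSMUSG00000027314.8, chromosome 2 of GRCm39, 119156170 to 119166443, plus strand). In untreated WT cells it lay at 553, 565 and 741 CPM, and in WT+R cells at 117 and 185 CPM. Both treated libraries were thus below every untreated one. Dll4 fell by 2.04 ± 0.37 on the log2 scale (SE, adjusted p = 0.018, edgeR), a fold of 4.11, and its value with the replicate block was −2.07 (adjusted p = 0.0065, edgeR).

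The direction held in every fit of Dll4 with a library left out, but the call did not. The log2 fold change ran from −2.41 to −1.75 and the adjusted p from 0.034 to 0.25 (edgeR). The call was lost without WT replicate 3 (adjusted p = 0.059, edgeR), WT+R replicate 1 (0.25) or WT+R replicate 2 (0.064), and stayed without the library labelled WT replicate 1 (−2.12, adjusted p = 0.048). Fitted on the WT and WT+R libraries alone, the adjusted p was 0.086 (edgeR). With the block the call was lost in 1 of 5 such fits, without WT+R replicate 1 (adjusted p = 0.12, edgeR). The mural marker sum, carried mainly by Acta2 and Tagln, was also higher in WT+R cells. Acta2, which encodes smooth muscle actin, rose by 2.74 ± 0.61 on the log2 scale (SE, adjusted p = 0.047, edgeR, called in 1 of 5 fits with a library left out). The pericyte markers Pdgfrb and Cspg4 of the same list overlapped between WT+R and WT cells. Rgs5 was lower (0.0895 and 0.0430 CPM in WT+R against 0.299 to 0.943 CPM in WT cells). The part of these markers in the Dll4 result was not tested.

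In KO cells Dll4 lay at 438, 400 and 332 CPM untreated and at 211, 175 and 174 CPM with rapamycin, again without overlap. The log2 fold change was −1.06 ± 0.31 (SE, adjusted p = 0.14, edgeR), and it passed with the replicate block (−1.06, adjusted p = 0.047, edgeR) but in none of the 6 blocked fits that each left out a library, with adjusted p-values of 0.061 to 0.22. Within replicates 1, 2 and 3 the log2 differences were −1.05, −1.19 and −0.93, a narrow range. In WT cells they were −2.24 and −1.61 in replicates 1 and 2. The difference between the genotypes in the response to rapamycin was 0.98 ± 0.46 on the log2 scale and was not called (unadjusted p = 0.056, adjusted p = 1.00, edgeR).

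Untreated KO cells had 390 ± 53.4 CPM of Dll4 against 620 ± 105 CPM in WT cells (SD, n = 3), and no KO library reached the lowest WT library. The log2 fold change was −0.67 ± 0.31 (SE) and was not called (adjusted p = 0.82, edgeR), nor was it without the library labelled WT replicate 1 (−0.75 ± 0.35, adjusted p = 0.87). The difference was lower in 3 of 3 replicate numbers. Under rapamycin, KO and WT cells overlapped in Dll4 (0.31 ± 0.35, adjusted p = 1.0, edgeR).

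With propranolol Dll4 was 186, 288 and 254 CPM in KO+P cells, each below every untreated KO library, with a log2 fold change of −0.68 ± 0.31 (SE, adjusted p = 0.39, edgeR). In WT+P cells it was 177 and 491 CPM, and −0.89 ± 0.35 (adjusted p = 0.48, edgeR). The lowest values, 177 CPM in WT+P replicate 1 and 186 CPM in KO+P replicate 1, belonged to the libraries with the lowest endothelial marker sums. Without WT+P replicate 1 the value was −0.34 ± 0.30 (adjusted p = 1.0, edgeR), and without WT+P replicate 2 it was −1.81 and called (adjusted p = 0.019, edgeR). Each of these fits keeps a single WT+P library, which is assumed to vary like the other groups. Without KO+P replicate 1 it was −0.53 ± 0.34 in KO cells (adjusted p = 0.99, edgeR). Low endothelial markers went with the lowest Dll4 in WT+P replicate 1 and KO+P replicate 1. In KO+P replicate 3 Dll4 was 254 CPM with a marker sum of 14349 CPM, within the untreated KO range of 14164 to 16261 CPM. In KO+P replicate 2 Dll4 was higher (288 CPM) with a lower sum (11360 CPM). The part of the markers was not tested.

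Of the exonic bases of Dll4, 15.61% are shared with Gm14207, a non-coding RNA gene on the other strand. The libraries do not keep the strand, so reads there cannot be assigned with certainty. The level given to Gm14207 was 4.12 to 15.8 CPM and at most 5.25% of that of Dll4 in a library.

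Jag1 encodes the Jagged ligand that is prominent in endothelium and smooth muscle (ENSMUSG00000027276.9, chromosome 2, 136923373 to 136958693, minus strand). It lay at 45.6, 126 and 112 CPM in WT cells and at 152 and 222 CPM in WT+R cells, so that both treated libraries were above all untreated ones. The fitted log2 difference was 0.98 ± 0.57 (SE, adjusted p = 0.54, edgeR). With the replicate block Jag1 rose by 1.30 ± 0.25 (adjusted p = 0.011, edgeR), a call that was lost without the library labelled WT replicate 1 (adjusted p = 0.057) or without WT+R replicate 1 (0.20). Without the block and that WT library it was 0.65 ± 0.58 (adjusted p = 0.75, edgeR). The mural markers Acta2 and Tagln were also higher in the WT+R libraries. Acta2 was called there, and Tagln, another smooth muscle gene, rose by 2.50 ± 0.61 with the block (SE, adjusted p = 0.035, edgeR). Their part in the Jag1 result was not tested.

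Replicate 1 was the lowest in Jag1 in every group, a difference that the block removes. In KO cells Jag1 lay at 44.9, 96.9 and 113 CPM untreated and at 102, 160 and 153 CPM with rapamycin, higher in 3 of 3 replicate numbers by 1.18, 0.72 and 0.44 on the log2 scale. This was not called (0.70 ± 0.52, adjusted p = 0.66, edgeR, and adjusted p = 0.052 with the block). KO and WT cells overlapped in Jag1 (−0.16 ± 0.51, adjusted p = 1.00, edgeR), and without the library labelled WT replicate 1 the value was −0.50 ± 0.52. With propranolol it was lower in each of the 5 replicate pairs, by amounts that were not called (−0.41 ± 0.51 in KO and −0.33 ± 0.58 in WT cells, SE, and −0.67 ± 0.58 in WT cells without that library).

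The CPM ratio of Dll4 to Jag1 brings both ligands together. It was 12.1, 4.48 and 6.60 in WT, 5.49 and 4.13 in WT+P, and 0.769 and 0.832 in WT+R cells. The ratio is not corrected for transcript length, and per length the mean of Dll4 was above that of Jag1 in WT+R cells, with overlapping libraries, as given above in TPM. In KO cells the ratio was 9.76, 4.13 and 2.93 untreated, 5.39, 4.07 and 2.92 with propranolol and 2.08, 1.09 and 1.13 with rapamycin. The propranolol ratios were close to those of the untreated KO library of the same number in replicates 2 and 3. The ratio was formed after the values of both genes were known and is given without a test.

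**Figure D4:**
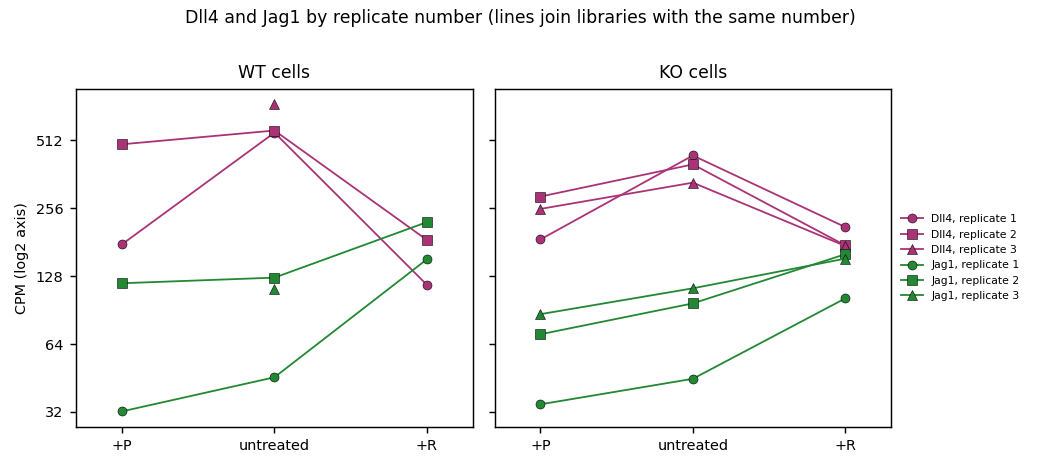
Dll4 (purple) and Jag1 (green) in CPM on a log2 axis in WT cells (left) and KO cells (right), with propranolol (+P), without drug and with rapamycin (+R). Lines join libraries with the same replicate number, and WT replicate 3 has no treated counterpart. CPM values are not corrected for transcript length, so the order of both genes at one point is not an order of transcript levels, and in TPM the mean of Dll4 (61.6) is above that of Jag1 (51.3) in WT+R cells. The distance between the genes is smaller in the rapamycin libraries than in the untreated ones.

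Jag2, the other Jagged ligand (ENSMUSG00000002799.8, chromosome 12, 112871421 to 112893437, minus strand), had the reverse genotype pattern to Dll4. It lay at 121, 107 and 62.7 CPM in WT and at 193, 175 and 209 CPM in KO cells, without overlap. KO exceeded WT by 0.99 ± 0.27 on the log2 scale (SE, adjusted p = 0.48, edgeR, and 0.14 with the block). Leaving out the library labelled WT replicate 1 gave 1.18 ± 0.30 (adjusted p = 0.42, edgeR). Only DESeq2 with the replicate block called it (0.99, adjusted p = 0.018). Jag2 is also one of the genes that the study listed as changed on these same samples, so its direction here is not independent evidence.

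The higher level of Jag2 in KO cells was seen under both drugs. It was 185, 169 and 206 CPM in KO+P against 132 and 107 CPM in WT+P cells (0.65 ± 0.30, SE, adjusted p = 0.79, edgeR). Under rapamycin it was 81.4, 142 and 143 CPM in KO+R against 38.4 and 65.2 CPM in WT+R cells (1.24 ± 0.31, adjusted p = 0.39, edgeR, and adjusted p = 0.019, DESeq2). The groups did not overlap in either case. Rapamycin-treated cells had less Jag2 in each of the 5 replicate pairs, with log2 fold changes of −0.66 ± 0.27 in KO (adjusted p = 0.32, edgeR) and −0.90 ± 0.31 in WT cells (adjusted p = 0.20, edgeR), and −0.71 ± 0.32 in WT cells without the library labelled WT replicate 1. The difference between genotypes in this response was 0.24 ± 0.40 (adjusted p = 1.00, edgeR).

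Among the receptors, Notch1 varied little. Notch1 (ENSMUSG00000026923.16, chromosome 2, 26347915 to 26406675, minus strand), the receptor present in most tissues, lay between 106 and 177 CPM in 15 libraries and at 253 CPM in WT replicate 3. Its largest log2 fold change in a comparison of groups was −0.42 ± 0.26, in WT+R against WT (SE, adjusted p = 0.58, edgeR), and in KO against WT it was −0.25 ± 0.23 (adjusted p = 1.00, edgeR). Without the library labelled WT replicate 1 these values were −0.55 ± 0.28 and −0.38 ± 0.25. An antisense gene, 0610009E02Rik, shares exonic bases with Notch1 and was given up to 21.0% of its CPM in a library.

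Notch4 (ENSMUSG00000015468.16, chromosome 17, 34783220 to 34807477, plus strand) is the receptor largely restricted to endothelium. In untreated cells it was steady, at 605, 565 and 691 CPM in WT and 651, 678 and 635 CPM in KO cells (0.08 ± 0.50, SE, adjusted p = 1.00, edgeR, and 0.05 ± 0.59 without the library labelled WT replicate 1). With rapamycin it lay at 203 and 366 CPM in WT+R and at 352, 529 and 438 CPM in KO+R cells. All 5 treated libraries were below all untreated libraries of their genotype, but neither difference was called (−1.12 ± 0.58, adjusted p = 0.47, and −0.57 ± 0.51, adjusted p = 0.74, edgeR). In WT cells it was −1.14 ± 0.65 without the library labelled WT replicate 1.

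With propranolol, Notch4 was 122, 335 and 448 CPM in KO+P cells (−1.12 ± 0.51, SE, adjusted p = 0.39, edgeR) and 106 and 541 CPM in WT+P cells (−0.94 ± 0.58, adjusted p = 0.61, edgeR). DESeq2 with the block called the KO difference (−1.29, adjusted p = 0.016). Without KO+P replicate 1 the value in KO cells was −0.74 ± 0.49 (adjusted p = 0.99, edgeR). Without WT+P replicate 1 it was −0.20 in WT cells, and without WT+P replicate 2 it was −2.55 and called (adjusted p = 0.043, edgeR). The lowest Notch4 levels of the study, 106 and 122 CPM, belonged to the same libraries with the lowest endothelial marker sums, whose part in the result was not tested.

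Hey1 and Hey2 encode repressors that Notch switches on. Hey1 (ENSMUSG00000040289.10, chromosome 3, 8726956 to 8732385, minus strand) lay at 5.15, 2.32 and 4.22 CPM in KO and at 8.52, 13.2 and 10.9 CPM in KO+R cells. All treated libraries exceeded all untreated ones, while Dll4 was lower in the same libraries. This amounted to 1.48 ± 0.53 on the log2 scale (SE, adjusted p = 0.24, edgeR, and 0.090 with the block), and DESeq2 with the block called it (adjusted p = 0.019).

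In WT cells Hey1 lay at 8.51, 4.41 and 5.91 CPM untreated and at 3.71 and 6.62 CPM with rapamycin, so these groups overlapped (−0.28 ± 0.58, SE, adjusted p = 0.91, edgeR). The difference between the genotypes in the response to rapamycin was 1.76 ± 0.79 and was not called (unadjusted p = 0.045, adjusted p = 1.00, edgeR). KO cells had less Hey1 than WT cells in 3 of 3 replicate numbers without drug (−0.69 ± 0.52, adjusted p = 1.00, edgeR), and more in 2 of 2 with rapamycin (1.07 ± 0.60, adjusted p = 1.0, edgeR). Without the library labelled WT replicate 1 the untreated value was −0.41 ± 0.58, and WT+R against WT was 0.00 ± 0.64.

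With propranolol Hey1 was 0.958, 0.834 and 4.03 CPM in KO+P and 3.01 and 3.63 CPM in WT+P cells. The log2 fold changes were −1.02 ± 0.54 (SE, adjusted p = 0.44, edgeR) and −0.92 ± 0.60 (adjusted p = 0.63, edgeR). KO+P replicate 3 alone lay within the untreated KO range, and without it the value was −2.11 and called (adjusted p = 0.033, edgeR). Without KO+P replicate 1, a library with low endothelial markers, it was −0.69 ± 0.56 (adjusted p = 0.99, edgeR). In WT cells the value was −0.64 ± 0.64 without the library labelled WT replicate 1.

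Hey2 (ENSMUSG00000019789.11, chromosome 10, 30708350 to 30718828, minus strand), known from arterial specification, was close to the limit of detection, at 0.106 to 1.85 CPM or 2 to 40 counts in a library. The highest levels were in WT+P cells (1.85 and 1.03 CPM, against 0.414, 0.672 and 0.656 CPM in WT) and in KO+P replicate 2 (1.13 CPM). With propranolol the fitted log2 differences were 1.29 ± 0.64 in WT (SE, adjusted p = 0.53, edgeR) and 0.81 ± 0.60 in KO cells (adjusted p = 0.58, edgeR), neither called. In both genotypes the propranolol libraries were above the untreated ones in Hey2. Hey1 had the opposite order in WT cells, while its KO+P and KO libraries overlapped. Without the library labelled WT replicate 1 the WT value of Hey2 was 1.10 ± 0.73 (adjusted p = 0.83, edgeR).

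Efnb2, the arterial ephrin ligand (ENSMUSG00000001300.18, chromosome 8, 8667226 to 8711249, minus strand), lay at 113, 171 and 199 CPM in WT and at 73.4 and 130 CPM in WT+R cells. The ranges overlapped, but in each replicate number the treated library was lower, with log2 differences of −0.63 and −0.39. Efnb2 fell by 0.63 with the replicate block (adjusted p = 0.029, edgeR) and was not called without it (−0.66 ± 0.30, SE, adjusted p = 0.39, and −0.86 ± 0.30 without the library labelled WT replicate 1). When single libraries were removed from the blocked fit, the call stayed in 2 of 5 cases, those lacking the library labelled WT replicate 1 (−0.72, adjusted p = 0.047) or WT replicate 2 (−0.72, adjusted p = 0.044). It was lost without WT replicate 3, where the fold was under the threshold (−0.50), and without WT+R replicate 1 (−0.49) or 2 (−0.79, adjusted p = 0.067).

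In KO cells Efnb2 was 102, 141 and 121 CPM untreated and 68.8, 103 and 96.1 CPM with rapamycin, lower in 3 of 3 replicate numbers (−0.44 ± 0.27, SE, adjusted p = 0.56, edgeR, and 0.053 with the block). Propranolol groups were close to untreated ones in both genotypes (0.08 ± 0.27 in KO and −0.05 ± 0.30 in WT cells). Without the library labelled WT replicate 1 the WT value was −0.25 ± 0.30. KO was lower than WT in 3 of 3 replicate numbers (−0.41 ± 0.27, adjusted p = 0.98, edgeR), and by −0.62 ± 0.27 without the library labelled WT replicate 1.

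Ephb4, the venous receptor for ephrin-B2 (ENSMUSG00000029710.17, chromosome 5, 137348274 to 137376931, plus strand), lay at 120, 110 and 99.0 CPM in WT and at 157, 165 and 220 CPM in KO cells, without overlap (0.72 ± 0.29, SE, adjusted p = 0.72, edgeR, and 0.79 ± 0.34 without the library labelled WT replicate 1). In WT+R cells it was 123 and 117 CPM and in KO+R cells 140, 169 and 211 CPM. The rapamycin log2 fold changes were 0.13 ± 0.32 in WT (0.20 ± 0.36 without that library) and −0.06 ± 0.29 in KO cells, not called in either genotype. Ephb4 is also on the study's list of genes changed on these samples, so its genotype direction is not independent evidence.

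With propranolol Ephb4 was 67.1, 117 and 185 CPM in KO+P cells (−0.55 ± 0.29, SE, adjusted p = 0.43, edgeR) and 72.8 and 100 CPM in WT+P cells (−0.34 ± 0.32, adjusted p = 0.77, edgeR). The spread in KO+P cells was wide, and without KO+P replicate 1 the value was −0.26 ± 0.23. The lowest Ephb4 levels were again those of WT+P replicate 1 and KO+P replicate 1.

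Nr2f2, which encodes the venous transcription factor COUP-TFII (ENSMUSG00000030551.16, chromosome 7, 70001692 to 70016519, minus strand), was set mainly by the replicate number. Replicate 2 was the lowest in each of the 6 groups, at 6.59 to 13.6 CPM, against 14.1 to 22.2 CPM in the other libraries. With rapamycin Nr2f2 lay at 22.2 and 13.6 CPM in WT+R against 15.5, 8.89 and 16.9 CPM in WT cells. It rose by 0.59 ± 0.13 with the replicate block (adjusted p = 0.025, edgeR), was not called without it (0.38 ± 0.47, adjusted p = 0.84), and was called in none of the 5 blocked fits that each left out a library (adjusted p from 0.050 to 0.20). In KO cells the value with the block was 0.43 ± 0.12 and not called (adjusted p = 0.050, edgeR, and a fold below the threshold). KO and WT cells overlapped (−0.10 ± 0.42, adjusted p = 1.00, edgeR). The fitted values of Nr2f2 depended on how length was treated. With effective transcript lengths as an offset KO against WT was 0.53 ± 0.45 (adjusted p = 1.0, edgeR) and KO+R against KO was −0.08 ± 0.45 in place of 0.40, so both signs turned, and neither was called. Without the library labelled WT replicate 1, KO against WT was −0.02 ± 0.49 and WT+R against WT 0.47 ± 0.54. Of the exonic bases of Nr2f2, 18.26% are shared with genes on the other strand, of which B130024G19Rik was given at most 3.02% of its CPM.

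The rest of the Notch pathway and of the arterial and venous programs was described with lists of 71 other genes, of which 66 were tested. Dll3, Hes5, Dtx1, Gkn3 and Aplnr did not pass the filter. Without the library labelled WT replicate 1, 6 of the 66 fitted differences in KO against WT changed sign, 4 in WT+P against WT and 1 in WT+R against WT, and of 3 calls of these genes in WT+R against WT 1 stayed (Fbln5). Among the 3 tested receptors and ligands beside the members (Notch2, Notch3 and Dll1), none was called by edgeR in any comparison without the block. Dll1, a Delta-like ligand, had an unadjusted p under 0.05 with rapamycin in both genotypes. DESeq2 called 1 gene of this list in KO+R against KO without the block and 2 with it. With the block it also called 1 in WT+R against WT. Dll1 lay at 30.7, 39.2 and 50.7 CPM in KO and at 5.72, 10.4 and 12.6 CPM in KO+R cells, without overlap. The log2 fold change of Dll1 was −2.07 ± 0.70 (SE, adjusted p = 0.20, edgeR), and it fell by 2.13 with the block (adjusted p = 0.047), a call lost whichever of the 6 libraries was left out. Notch2 was higher in WT+R than in WT cells without a call (0.39 ± 0.30, adjusted p = 0.68, edgeR).

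None of the 18 genes for processing and sugar transfer, such as the protease Adam10 and the fringe enzymes, was called by edgeR with or without the block. At most 2 of them had an unadjusted p under 0.05 in any comparison, and DESeq2 called 0 without the block and 1, in KO+P against KO, with it. The largest values without overlap were those of Neurl1b in WT+P against WT (−1.54 ± 0.66, SE, adjusted p = 0.49, edgeR) and of the fringe enzyme Mfng in KO+P against KO (−0.91 ± 0.37, adjusted p = 0.36, edgeR). Mfng was also higher in KO than in WT cells without a call (0.62 ± 0.37, adjusted p = 0.96, edgeR, and 0.65 ± 0.43 without the library labelled WT replicate 1). Mib1, which the ligand-sending cell needs to take up its ligand, differed by only 0.28 ± 0.11 in WT+R against WT (adjusted p = 0.26, edgeR).

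Of 12 tested genes of the nuclear complex and its targets, 1 was called by edgeR, in WT+R against WT, where DESeq2 called 2. In each other comparison at most 2 had an unadjusted p under 0.05 and DESeq2 without the block called 0. With the block DESeq2 called 1 in KO against WT (2.67% of all genes called) and 2 in KO+P against KO (6.29%). It also called 1 in KO+R against WT+R (2.05%). Rbpj, the DNA-binding partner of the cut receptor, rose by 0.74 ± 0.17 (SE, adjusted p = 0.048, edgeR), from 40.4, 43.9 and 45.8 CPM to 84.9 and 59.7 CPM. In the fits that left out a library Rbpj was called in 1 of 5 (not without the library labelled WT replicate 1, 0.69 ± 0.19, adjusted p = 0.14), and the value without WT+R replicate 1 was the lowest (0.46). In KO+R against KO it was 0.43 ± 0.15 (adjusted p = 0.24, edgeR), in KO against WT −0.33 ± 0.15 (adjusted p = 0.83). Maml3, a coactivator of the same complex, fell by 1.26 in WT+R against WT with the block (adjusted p = 0.017, edgeR) and was not called without it (−1.35 ± 0.41, adjusted p = 0.13), and the blocked call of Maml3 was lost when the library labelled WT replicate 1 or either WT+R library was removed.

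The feedback gene Nrarp, a direct Notch target, lay at 161, 110 and 151 CPM in KO and at 10.4, 21.2 and 85.4 CPM in KO+P cells. This was not called (−1.85 ± 0.69, SE, adjusted p = 0.34, edgeR), and WT+P cells had 8.51 and 51.5 CPM of Nrarp against 93.2 to 161 CPM in WT cells (−1.96 ± 0.80, adjusted p = 0.48). The lowest Nrarp levels were those of WT+P replicate 1 and KO+P replicate 1. With rapamycin Nrarp was 40.1 and 53.8 CPM in WT+R and 87.2 to 131 CPM in KO+R cells (WT+R against WT −1.32 ± 0.78, adjusted p = 0.55, edgeR). The target Hes1 was lower in WT+P than in WT cells without a call (−0.48 ± 0.23, adjusted p = 0.51, edgeR). Dtx4, a ubiquitin ligase of the pathway, was low and lay at 0.874, 1.57 and 2.87 CPM in WT and at 0.465 to 0.711 CPM in KO cells (−1.54 ± 0.56, adjusted p = 0.62, edgeR, and −1.87 ± 0.57 without the library labelled WT replicate 1).

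Of 15 tested arterial markers, 2 were called lower and 0 higher with rapamycin, in WT and in KO cells alike. The median log2 fold change of the list was −0.43 in WT+R against WT and −0.24 in KO+R against KO, where the median of all genes was −0.01 and −0.02. The endothelial marker list had medians of −0.43 and −0.03 in these comparisons and the mural list medians of 1.18 and 0.25, and their part in the arterial values was not tested. Fbln5, an elastic fibre protein, fell by 3.01 ± 0.53 in WT (SE, adjusted p = 0.017, edgeR) and by 2.42 ± 0.44 in KO cells (adjusted p = 0.018), from 139 to 260 CPM in WT and 74.6 to 160 CPM in KO down to 15.8 to 28.2 CPM in the 5 treated libraries. Igfbp3, a binding protein for insulin-like growth factors, fell by 3.70 ± 0.83 in WT (adjusted p = 0.047, edgeR) and by 3.03 ± 0.68 in KO cells (adjusted p = 0.044). In these genes the treated and untreated libraries did not overlap. Fbln5 was called in 3 of 5 fits that left out a library in WT and in 2 of 6 in KO cells, and Igfbp3 in 1 of 5 and in 1 of 6. Without the library labelled WT replicate 1, Igfbp3 was at −3.39 ± 0.86 in WT cells and not called (adjusted p = 0.11, edgeR). With the block Fbln5 and Igfbp3 were called in all 6 such fits in KO cells and in 3 of 5 in WT cells, where each was lost without WT+R replicate 1 or 2.

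With the replicate block 3 arterial markers were called lower in KO+R cells (4.98% of all genes called). In WT+R cells 4 were called lower and 1 higher (4.56% of all genes called). Cxcr4, a chemokine receptor of tip and arterial cells, fell by 1.16 in KO (adjusted p = 0.0046, edgeR) and was at −1.64 in WT cells (adjusted p = 0.0024), and both calls held in every blocked fit that left out a library. Without the block Cxcr4 was not called (−1.08 ± 0.69, adjusted p = 0.59, and −1.31 ± 0.79, adjusted p = 0.57, SE, edgeR), and its level ran from 295 to 805 CPM among the untreated KO libraries. Gja4, which encodes the arterial connexin 37, was at 1.79, 3.06 and 3.86 CPM in WT and at 0.224 and 0 CPM in WT+R cells (adjusted p = 0.086, edgeR, and 0.040 with the block, a call lost whichever library was left out). Depp1, a FOXO target found in arterial endothelium, went the other way and rose by 2.20 in WT+R cells with the block (adjusted p = 0.0069) and was at 2.62 ± 0.65 without it (adjusted p = 0.066). The Depp1 value rested largely on WT+R replicate 1, at 352 CPM, and its call was lost without it. In KO+R against KO Gja4 was at −0.46 ± 0.85, not called. Some other arterial genes changed little with rapamycin in WT and KO cells: Sox17 (−0.08 ± 0.24 and −0.10 ± 0.22), Nrp1 (−0.24 ± 0.46 and −0.25 ± 0.41) and Acvrl1 (−0.31 ± 0.28 and 0.08 ± 0.24). Others had larger values without a call: Gja5 (−2.23 ± 1.01 and −0.01 ± 0.81), Sema3g (−1.36 ± 0.84 and −0.16 ± 0.71) and Mgp (1.47 ± 1.19 and 1.21 ± 1.08). An unadjusted p under 0.05 (edgeR) was reached by 6 of the 15 arterial markers in WT+R against WT and by 2 in KO+R against KO.

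The guidance receptor Unc5b was the arterial marker with the clearest genotype pattern, at 145, 129 and 212 CPM in WT and 98.9, 90.9 and 86.2 CPM in KO cells. This was not called (−0.81 ± 0.16, SE, adjusted p = 0.29, edgeR), nor was it without the library labelled WT replicate 1 (−0.90 ± 0.18, adjusted p = 0.27). It was lower again in KO+P cells, at 46.6, 46.6 and 54.7 CPM (−0.90 ± 0.17 against KO, adjusted p = 0.11, edgeR), and fell by 1.17 against WT+P with the block (adjusted p = 0.045), where every fit that left out a library lost the call. Sema3g was higher in KO than in WT cells without a call (0.89 ± 0.71, adjusted p = 1.00, edgeR, and 0.71 ± 0.83 without that library). Both are on the study's list of genes changed on these samples, so their direction is not independent evidence. The 15 arterial markers had 0 calls by edgeR in KO against WT, KO+P against KO and WT+P against WT. In that order, 1, 3 and 4 genes had an unadjusted p under 0.05, and DESeq2 without the block called 1, 1 and 0. DESeq2 with the block called 2, 6 and 1 of them. Over all 14838 genes it called 396, 933 and 157 there.

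Of 10 tested venous markers none was called by edgeR without the block in any comparison. In WT+R against WT 4 had an unadjusted p under 0.05, and DESeq2 called 2. The median log2 fold change of the list was 0.85 in WT+R against WT and 0.54 in KO+R against KO. With the block 2 rose in WT+R cells. Nrp2, a VEGF-C co-receptor, rose by 1.09 (adjusted p = 0.036, edgeR, and 1.07 ± 0.25, SE, adjusted p = 0.054, without the block). Its treated libraries were far apart, at 546 and 249 CPM, and the blocked fit without WT+R replicate 1 gave the lowest Nrp2 value, 0.36. The blocked call of Nrp2 held in 1 of 5 fits with a library left out and was lost without WT replicate 1, 2 or 3 or WT+R replicate 1. Emcn, endomucin of veins and capillaries, rose by 0.85 with the block (adjusted p = 0.018, edgeR, and 0.80 ± 0.21, adjusted p = 0.085, without it), from 1051, 1119 and 1128 CPM to 1894 and 1927 CPM. The Emcn call was lost without WT replicate 2, WT+R replicate 1 or WT+R replicate 2. In KO+R cells the Emcn difference was 0.35 ± 0.19 (adjusted p = 0.50, edgeR). Nrp2 was at 0.02 ± 0.23 in KO+R against KO. Ackr1, a venule receptor, was at 3.08 ± 1.18 in WT+R against WT and not called (adjusted p = 0.27, edgeR). It was low, at 0.552, 0.486 and 0.287 CPM in WT and at 6.62 and 0.902 CPM in WT+R cells. Slc38a5 (−1.56 ± 1.27), Nr2f1 (−0.83 ± 0.81) and Flt4 (−0.16 ± 0.26) had negative values in WT+R against WT, also without a call.

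**Figure D5:**
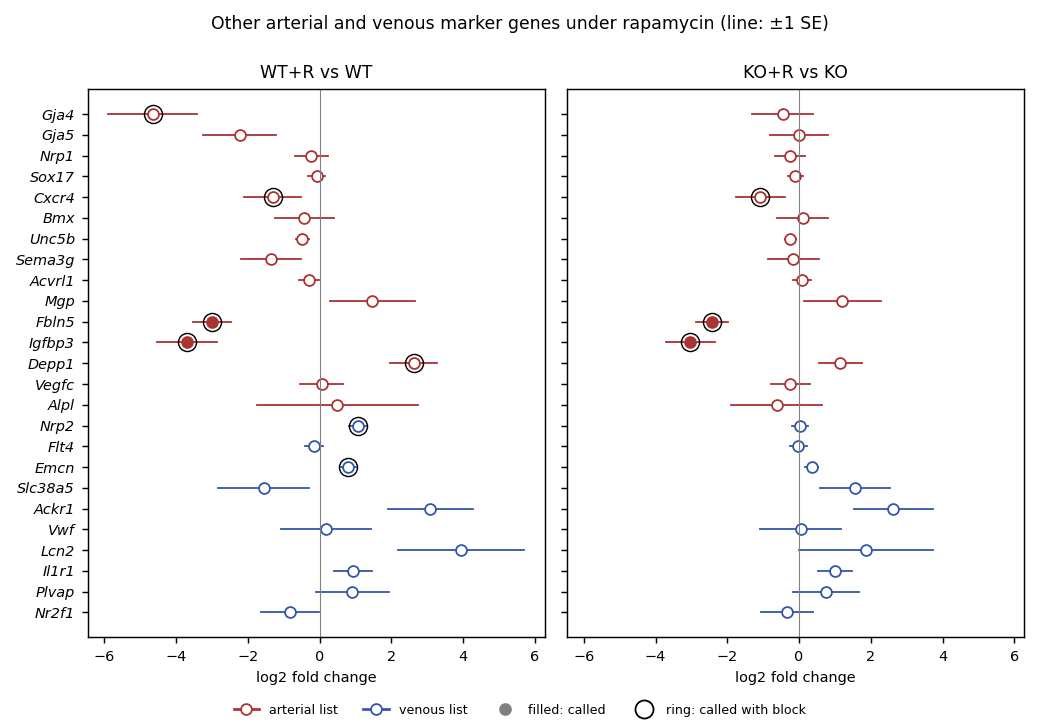
Log2 fold change (horizontal axis) with ±1 SE from edgeR for the 15 tested arterial (red) and 10 tested venous (blue) markers beside the members, in WT+R against WT (left) and KO+R against KO (right). Filled points are called, and black rings mark calls with the replicate block. Fbln5 and Igfbp3 are called lower in both panels, and no venous marker is called without the block.

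Of the 8 other genes of the ephrin axis none was called without the block (at most 2 at an unadjusted p under 0.05 in a comparison, and at most 1 called by DESeq2). Ephb1, an ephrin-B receptor, lay at 39.4, 13.2 and 20.6 CPM in KO and at 4.24, 1.27 and 2.76 CPM in KO+R cells. It fell by 3.19 with the block (adjusted p = 0.045, edgeR, lost whichever library was left out) and was not called without it (−3.15 ± 0.92, SE, adjusted p = 0.14). In WT+R against WT the Ephb1 value was −3.64 ± 1.13 (adjusted p = 0.15, edgeR).

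Of the 12 genes of the endothelial marker list, 1 was called with rapamycin in each genotype: Eng, a co-receptor of ALK1, rose by 1.27 ± 0.22 in WT (SE, adjusted p = 0.017, edgeR) and by 0.98 ± 0.20 in KO cells (adjusted p = 0.032). With a library left out Eng stayed called in 1 of 5 fits in WT and in 0 of 6 in KO cells. With propranolol the list medians were −0.55 in WT and −0.38 in KO cells with no call by edgeR. Of the list, 4 and 3 genes had an unadjusted p under 0.05, and none was called by DESeq2 without the block. With the block DESeq2 called 3 in KO+P against KO (6.29% of all genes called) and 0 in WT+P against WT. The list medians lay beside the values for Dll4, Notch4 and Ephb4 under propranolol, and their part in those was not tested.

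The gene most like each member across the 16 libraries was found by the smallest root mean square difference of centred log2 CPM, over 12409 genes that averaged 1 CPM or more (12410 for Hey2, whose own mean is lower). It was Deptor for Dll4 (0.340, against a root mean square of 0.758 for Dll4 itself), Icam2 for Notch4 (0.248), Tle4 for Notch1 (0.161), Nuak1 for Jag1 (0.320) and Fam20a for Jag2 (0.232). For the others it was Dbp for Hey1 (0.527), Ddr2 for Hey2 (0.411), AI506816 for Efnb2 (0.166), Mknk2 for Ephb4 (0.122) and Zfp580 for Nr2f2 (0.248). No member was the nearest gene of another. Hey1 had the most distant neighbour and Ephb4 the closest. Deptor, an inhibitor within the mTOR complexes, was itself low, with a mean of 1.88 CPM. These are descriptions over libraries that share replicate numbers and groups.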

How the data were processed

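Poly(A) RNA of mBMEC was sequenced as 16 unstranded paired-end libraries. The study's methods name STAR, HTSeq and DESeq2, whereas the authors deposited, per library, an estimated count and a TPM value for each of 140789 transcripts in Salmon format, and the submitters' processing notes list Salmon 1.5.2. As deposited by the authors, an estimated count is a transcript's share of the reads assigned by Salmon and is not normalized between libraries, and a TPM value is that count per effective length scaled to a fixed total. GENCODE names for GRCm39 covered 99.12% of transcripts. The rest held 0.39 to 0.57% of the counts and were left out. Counts were summed per gene and rounded, and TPM values were summed per gene. Depth was 18.83 to 26.2 M counts per library.

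edgeR 4.0.16 (R 4.3.3) with TMM factors, filterByExpr and a quasi-likelihood fit of all groups gave the tests, with 10 residual degrees of freedom, or 8 with the replicate number as a block. DESeq2 1.42.0, RLE size factors, no filter, effective lengths as an offset, only the groups compared and each library left out were alternatives. The script was tested on simulated data.

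Same-numbered libraries were checked for pairing. Deviations from group means correlated at 0.19 to 0.69 within compared groups (over all 36 such pairs the median was 0.52 and the lowest 0.03, between WT and KO+P replicates 3, groups not compared), against a median of −0.23 over 70 pairs with different numbers. The pairing was read from the values and is stated in neither labels nor methods. P-values measure the spread between these libraries.

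The 10 genes, the lists (Notch pathway, arterial, venous, ephrin and cell type markers) and the tests were chosen with earlier results of these data known. From the lists, called genes and up to 2 uncalled genes per comparison with the largest change could be named, if they averaged 1 CPM or more and the groups were separate. Some other list genes were named outside this rule.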

Additional observations from a re-analysis of the deposited data

Results flagged for a closer look

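Hey1 differed between the drug conditions in the direction of its genotype difference. Without drug, KO libraries were below WT libraries in 3 of 3 replicate numbers (log2 differences −0.72, −0.90 and −0.48). With rapamycin they were above them in 2 of 2 replicate numbers (1.18 and 0.99). Every difference in one condition thus had the opposite sign to every difference in the other. The difference between these effects was tested as the interaction of rapamycin with genotype and was 1.76 on the log2 scale, with a standard error of 0.79. It did not pass (unadjusted p = 0.045, adjusted p = 1.00, edgeR). Hey1 was low, at 0.834 to 13.2 CPM, and the library labelled WT replicate 1, whose Pdcd10 level was that of KO cells, had the highest Hey1 of the untreated libraries (8.51 CPM).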

How the results depend on the processing

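Among the 10 genes, 1 was called in WT+R against WT and 0 in every other comparison. In WT+R against WT the count was 4 with the replicate block in edgeR, 4 with the block in DESeq2, 0 with only the groups compared, and 0 to 1 with a library left out. With the block and a library left out (chosen after the data were seen) it was 2 without WT replicate 1, 3 without WT replicate 2 or 3, 0 without WT+R replicate 1 and 2 without WT+R replicate 2. In KO+R against KO it was 1 with the block in edgeR, 1 with DESeq2, 1 with only the groups compared and 3 with DESeq2 and the block. In KO+P against KO it was 1 with DESeq2 and the block, 0 to 1 with a library left out, and 3 with the block and without KO+P replicate 3. In WT+P against WT it was 0 to 2 with a library left out and 2 with the block and without WT+P replicate 2. DESeq2 with the block gave 1 in KO against WT and 1 in KO+R against WT+R, where DESeq2 without it also gave 1. The edgeR block changed no other call of the 10 genes. RLE size factors, no filter and effective lengths changed no count. Of 1830 fold changes of these genes under alternatives, 170 changed sign, none with a call, and the largest of these was 0.67 in size without the alternative. 30 gained a call and 5, all of Dll4 in WT+R against WT, lost it. Of the 10 genes Hey2 had the fewest counts, 2 to 40 in a library.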
